A study of Mus musculus with 5 samples.

Results

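Pericytes of the lung were taken as the cells that the authors annotated with that name in 5 single-cell RNA-sequencing libraries of metastatic mouse lungs, which gave 483 cells of 22118 annotated cells. Their names came from clusters that the authors labelled by hand, and no measured difference between groups was used to choose them. All mice were female BALB/c animals, aged 6 weeks at the start, that received 200 µL of medium into a vein 3 times a week for 3 weeks. The medium was either tumor-secreted factors (TSF), that is medium in which cut 4T1 mammary tumors had been incubated, or control medium (CM) kept in parallel without tumor. Every animal then received 25000 4T1 cells, a mouse mammary carcinoma line, that expressed the reporter CD90.1, so the CM lungs also carried cancer cells. Lungs were taken at day 11, when mice were 10 weeks old, or at day 16, when they were 11 weeks old. Each group was a pool of dissociated lungs from 3 mice, and the factors of several tumors were pooled, so neither a mouse nor a tumor could be followed. There was 1 library each for CM day 11, CM day 16 and TSF day 16, and libraries a and b for TSF day 11. The sources did not say how a and b were related, so they were counted as 1 sample by the mean of their shares, and no group had a replicate.

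Pericytes are mural cells that lie on capillaries within the basement membrane of the vessel and share it with the endothelium. Endothelial cells release PDGF-BB, which acts on the receptor PDGFRβ of pericytes and recruits them, and Notch3 signaling keeps mural cells mature. In the lung they sit on the capillaries around alveoli, where they help to steady the vessel wall. Pericytes can also take on contractile or matrix-producing features after injury. Myofibroblasts and fibroblasts, the other mesenchymal types that the authors annotated, were the types set beside them here.

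The 5 libraries held 23852 cells, between 3835 and 5580 each, with 13240822 to 21451787 UMIs (unique molecular identifiers, 1 for each captured transcript) and a median of 2235.5 to 2721 UMIs per cell. Between 14 and 46 cell barcodes were shared by a pair of libraries. None of them marked a pericyte in both libraries of a pair, and 17 marked a pericyte in 1 of the 2. The library CM day 11 stood apart in its number of pericytes, with 46 cells, against 101 in CM day 16, 126 in TSF day 11 a, 109 in TSF day 11 b and 101 in TSF day 16. Every ratio against CM day 11 therefore rested on those 46 cells. Granulocytes changed the denominators unequally, since leaving them out reduced the annotated cells of TSF day 16 from 4896 to 3471, but those of CM day 16 only from 3567 to 3353. Intervals given below are at the 95% level and cover counting error only, not differences between mice, pools or dissociations, and with 1 sample per group no test between groups could be made.

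The name pericyte could not be checked against expression in the cells that carry it. The defining markers chosen for it were Pdgfrb (ENSMUSG00000024620), the PDGF receptor of mural cells, Cspg4 (ENSMUSG00000032911), the proteoglycan NG2, Cox4i2 (ENSMUSG00000009876), a respiratory chain subunit, and Notch3 (ENSMUSG00000038146), the Notch receptor of mural cells. On GRCm38 these genes lie, for Cspg4, at chr9:56865033-56899870 on the plus strand, for Cox4i2 at chr2:152754173-152765037 on the plus strand and for Notch3 at chr17:32120820-32166852 on the minus strand. Expression per pericyte was not analysed here, so their levels in the annotated pericytes are not given. Pdgfrb, Cox4i2 and Notch3, but not Cspg4, were among the 1000 highly variable genes that the authors used to cluster cells. Of the longer list of 12 pericyte markers, 9 were among those genes. That shows variation over the cells as a whole and not expression in the annotated pericytes.

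The authors cut their initial clusters from a UMAP, a map that places cells with like expression close together, and named the clusters afterwards. Neighbours in that map are therefore largely fixed by how the name was given, and are described here without adding support to it. Of the 15 nearest annotated neighbours of each pericyte, 99.5% were pericytes. For 458 of the 483 cells every neighbour was a pericyte, and the 39 neighbours of another name were all myofibroblasts. A single cell from TSF day 11 b had no pericyte neighbour, and it was also the 1 pericyte that the authors' first clustering had put in a myofibroblast cluster. All other pericytes lay in 3 initial clusters, numbered 17, 38 and 133, in which the authors called no doublet. Cluster 133 held 1 myofibroblast beside its 40 pericytes.

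Whether priming of the lung with TSF went with another share of pericytes was asked first at day 11. Pericytes were a larger share of the cells after TSF than after CM. They made up 1.23% of the annotated cells in CM day 11 (0.902 to 1.64), 2.46% in TSF day 11 a (2.06 to 2.93) and 2.27% in TSF day 11 b (1.87 to 2.73). Both TSF libraries lay above the CM library and their intervals did not overlap with it, while a over b was 1.09 with an interval of 0.834 to 1.42. The mean of a and b, 2.37%, was 1.92 times the CM share (1.40 to 2.70). With either TSF library alone the ratio was 2.00 or 1.84.

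The nearest cell types did not show a difference of this size. Myofibroblasts, the contractile cells of alveolar septa and airways, were 2.62% of annotated cells in CM day 11, 2.68% in TSF day 11 a and 2.62% in TSF day 11 b, a ratio of 1.01 (0.799 to 1.29). Fibroblasts, the main matrix-producing cells, had a ratio of 0.996 (0.878 to 1.13). Blood vessel endothelial cells had a ratio of 1.09 (1.01 to 1.18). Set directly against each other, pericytes were 31.9% of pericytes and myofibroblasts together in CM day 11 (24.4 to 40.2), 47.9% in TSF day 11 a and 46.4% in TSF day 11 b, and the ratio of these shares was 1.48 (1.07 to 2.07). Among all mesenchymal cells, that is pericytes, myofibroblasts and fibroblasts, pericytes were 9.56% in CM day 11, 17.2% in TSF day 11 a and 16.6% in TSF day 11 b, a ratio of 1.77 (1.29 to 2.48).

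Since pericytes cover endothelium, their number was also set against blood vessel endothelial cells. There were 5.38 pericytes per 100 such cells in CM day 11 (3.91 to 7.24), 10.0 in TSF day 11 a (8.26 to 12.0) and 8.99 in TSF day 11 b (7.32 to 10.9). The TSF over CM ratio was 1.76 (1.28 to 2.48), close to that of the share of annotated cells. These are ratios of captured cells, and how well pericytes leave the tissue during dissociation in each pool was not measured.

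**Figure D1:**
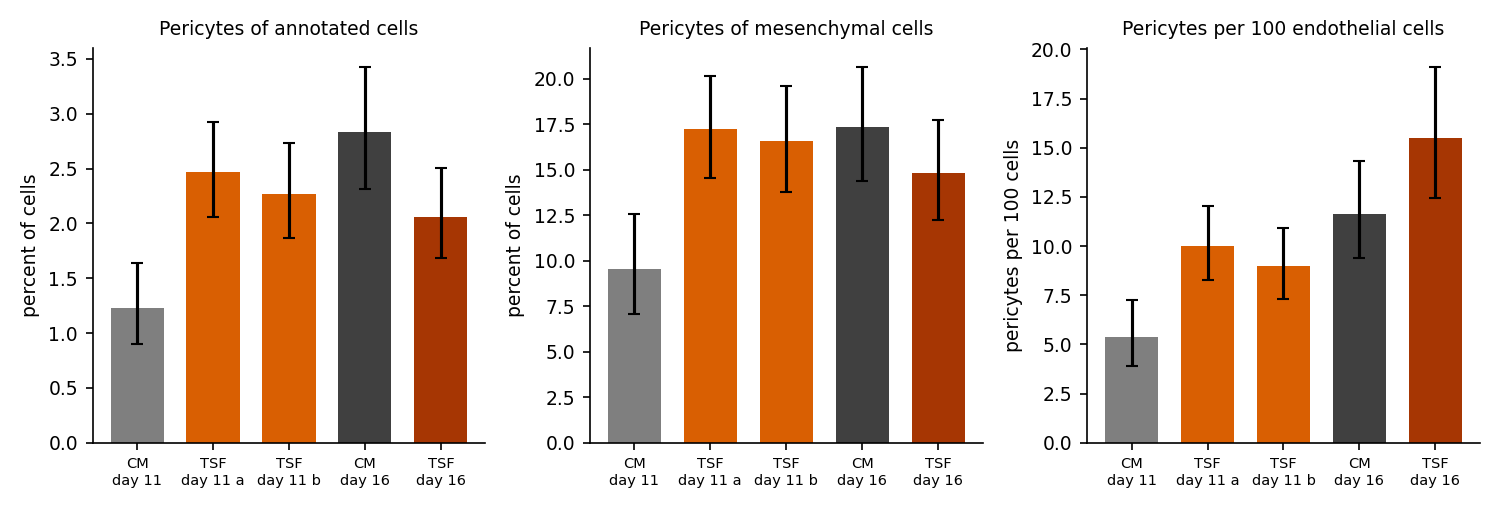
Pericytes in each library as a percent of annotated cells (left), as a percent of pericytes, myofibroblasts and fibroblasts (middle) and per 100 blood vessel endothelial cells (right). Bars are 1 library each and lines are exact 95% counting intervals. CM day 11 is the lowest library on all 3 scales, and TSF day 16 is below CM day 16 on the left and in the middle but above it on the right.

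At day 16 the direction between TSF and CM depended on the cells that pericytes were counted against. They were 2.83% of annotated cells in CM day 16 (2.31 to 3.43) and 2.06% in TSF day 16 (1.68 to 2.50), a ratio of 0.729 (0.547 to 0.970). Without granulocytes, the shares were 3.01% and 2.91%, a ratio of 0.966 (0.726 to 1.29). Among cells that were neither immune nor cancer cells they were 5.89% and 6.09%, a ratio of 1.03 (0.777 to 1.38). The lower share in TSF day 16 was therefore within counting error once granulocytes were left out of the count. Among mesenchymal cells the shares were 17.4% in CM day 16 and 14.9% in TSF day 16, a ratio of 0.856 (0.643 to 1.14). Among pericytes and myofibroblasts together the ratio of the pericyte shares was 0.899 (0.675 to 1.20).

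Against the endothelium the order of the day 16 libraries was the opposite. CM day 16 had 11.6 pericytes per 100 blood vessel endothelial cells (9.37 to 14.3) and TSF day 16 had 15.5 (12.4 to 19.1), a ratio of 1.33 (1.00 to 1.77). The lower bound of that interval was at 1.00, and with lymphatic endothelial cells added to the denominator it fell just under 1, so a difference was at the limit of what these counts can show. Over the same libraries the share of blood vessel endothelial cells itself was 24.3% of annotated cells in CM day 16 and 13.3% in TSF day 16, a ratio of 0.547 (0.494 to 0.606). Among cells that were neither immune nor cancer cells it was 50.6% and 39.3%.

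In the CM lungs pericytes were more frequent at day 16 than at day 11. Their share of annotated cells was 2.30 times as high at day 16 (1.61 to 3.34), and per endothelial cell it was 2.16 times as high (1.51 to 3.14). The same ratio was nearer to 1 for neighbouring types, at 1.10 for myofibroblasts (0.827 to 1.47), 1.18 for fibroblasts (1.01 to 1.37) and 1.06 for blood vessel endothelial cells (0.967 to 1.17). After TSF the pericyte share of annotated cells was 0.872 times as high at day 16 as at day 11 (0.683 to 1.10), and without granulocytes it was 1.17 times as high (0.917 to 1.48). Per endothelial cell it was 1.63 times as high (1.28 to 2.07), while the endothelial share of annotated cells was 0.534 times as high.

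The order of the groups by pericytes per 100 endothelial cells was CM day 11, TSF day 11, CM day 16 and TSF day 16. CM day 11 was set apart from all others by its interval. TSF day 11 and CM day 16 overlapped in their intervals, as did CM day 16 and TSF day 16. By share of annotated cells the order was CM day 11, TSF day 16, TSF day 11 and CM day 16, and the intervals of the last 3 overlapped, although that of the ratio of TSF day 16 to CM day 16 lay below 1. The TSF over CM ratio was thus smaller at day 16 than at day 11 by 1.40 on the log2 scale for annotated cells (interval of the difference -2.01 to -0.80). Per endothelial cell the difference was -0.41 (-1.01 to 0.20), which is within counting error.

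The pericytes of the groups also differed in which of the authors' initial clusters held them. Clusters 17 and 38 held 217 and 225 pericytes, and the small cluster 133 held 40. Those clusters were made by the authors from expression of the same cells, and the split was looked at after the values were seen, so it is given as a description. The genes that separate the clusters were not analysed here, and no state is named for them.

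Cluster 17 held 54.3% of the pericytes of CM day 11 (39.0 to 69.1) and 72.3% of those of CM day 16 (62.5 to 80.7). It held 22.2% in TSF day 11 a (15.3 to 30.5), 27.5% in TSF day 11 b (19.4 to 36.9) and 60.4% in TSF day 16 (50.2 to 70.0). The TSF day 11 libraries were the low ones, and neither of their intervals overlapped with that of any other library. Cluster 38 showed the reverse order, with 65.1% and 55.0% of the pericytes in TSF day 11 a and b. It held 41.3% in CM day 11, 26.7% in CM day 16 and 36.6% in TSF day 16. These libraries were less clearly apart. The interval of CM day 11 (27.0 to 56.8) overlapped with those of a (56.1 to 73.4) and b (45.2 to 64.6). That of TSF day 16 (27.3 to 46.8) overlapped with that of b. Cluster 133 consisted mainly of TSF day 11 cells, with 16 from a and 18 from b, against 2 from CM day 11, 1 from CM day 16 and 3 from TSF day 16.

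Expressed as shares of annotated cells, the excess of pericytes in TSF day 11 lay in clusters 38 and 133. Together these were 0.562% of annotated cells in CM day 11 (0.348 to 0.857), 1.92% in TSF day 11 a (1.56 to 2.33) and 1.62% in TSF day 11 b (1.29 to 2.02), a ratio of 3.15 (2.00 to 5.23). With a alone the ratio was 3.41 and with b alone 2.89. Cluster 17 pericytes were 0.669% in CM day 11 (0.433 to 0.986), 0.548% in a (0.364 to 0.791) and 0.624% in b (0.422 to 0.890), a ratio of 0.876 (0.538 to 1.46).

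The higher share at day 16 in CM lungs lay in the other cluster. Cluster 17 pericytes were 0.669% at day 11 and 2.05% of annotated cells at day 16 (1.61 to 2.57), a ratio of 3.06 (1.92 to 5.03), while clusters 38 and 133 were 0.562% and 0.785% (0.522 to 1.13), a ratio of 1.40 (0.765 to 2.59). After TSF, cluster 17 pericytes were also more frequent at day 16, with a ratio over day 11 of 2.13 (1.46 to 3.11), and those of clusters 38 and 133 were less frequent, with a ratio of 0.462 (0.318 to 0.652). The share of pericytes that lay in cluster 17 was thus higher at day 16 after TSF, with a ratio of 2.43 (1.68 to 3.57). For CM the ratio was 1.33 (0.834 to 2.19), which is within counting error.

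Per 100 blood vessel endothelial cells, cluster 17 pericytes numbered 2.92 in CM day 11, 2.22 in TSF day 11 a and 2.47 in TSF day 11 b, and 8.41 in CM day 16 and 9.36 in TSF day 16. The 3 day 11 libraries were alike on this scale, as were the 2 day 16 libraries, and the TSF over CM ratios were 0.803 (0.494 to 1.34) and 1.11 (0.779 to 1.58). Pericytes of clusters 38 and 133 numbered 2.46 in CM day 11 and 3.23 in CM day 16, but 7.78 and 6.43 in TSF day 11 a and b and 6.13 in TSF day 16. On this scale they were higher after TSF than after CM on both days, with ratios of 2.89 (1.84 to 4.80) and 1.90 (1.14 to 3.20). As shares of annotated cells the same clusters had a ratio of 1.04 at day 16 (0.626 to 1.75), and among mesenchymal cells one of 1.22 (0.736 to 2.06), so at day 16 the interval lay above 1 only against the endothelium, whose own share was lower in TSF day 16.

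**Figure D2:**
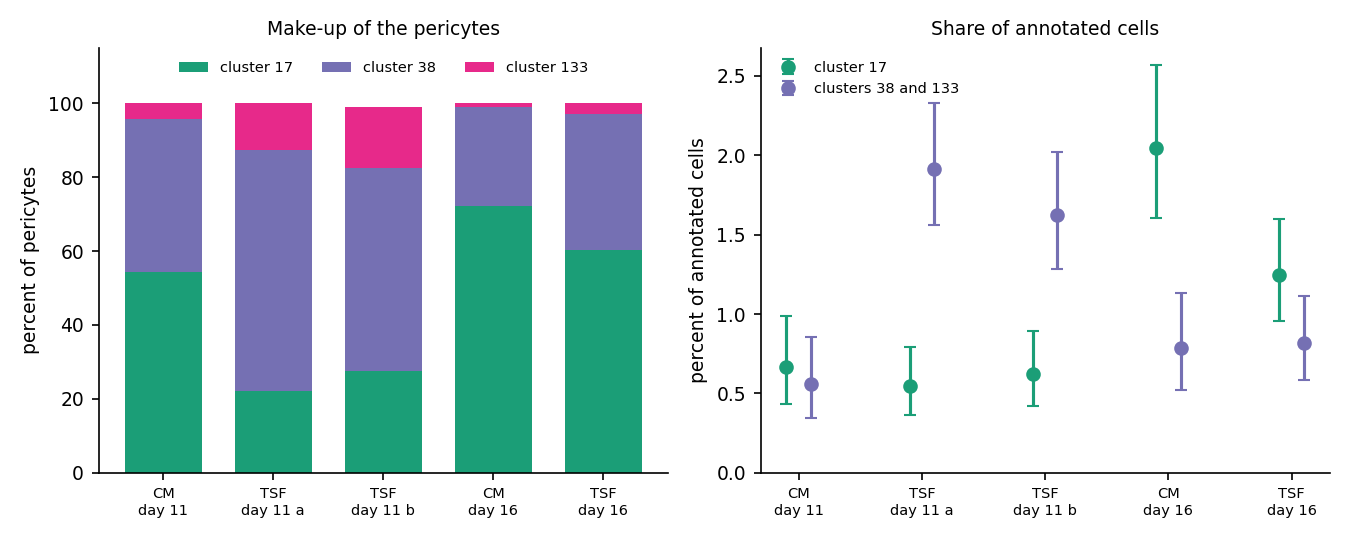
Left, percent of the pericytes of each library in the authors' initial clusters 17, 38 and 133. Right, pericytes of cluster 17 and of clusters 38 and 133 together as a percent of annotated cells, with exact 95% counting intervals. Clusters 38 and 133 are high in the TSF day 11 libraries only, and cluster 17 is highest in CM day 16 at 2.05%.

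Since the clusters were cut from the UMAP, positions in it restate the counts above and are no second measurement. Cluster 17 was at the left of the pericytes and cluster 38 to its right with a tail below, while cluster 133 was set off at the upper right. TSF day 11 a and b filled the right side, and the day 16 libraries mostly the left side.

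**Figure D3:**
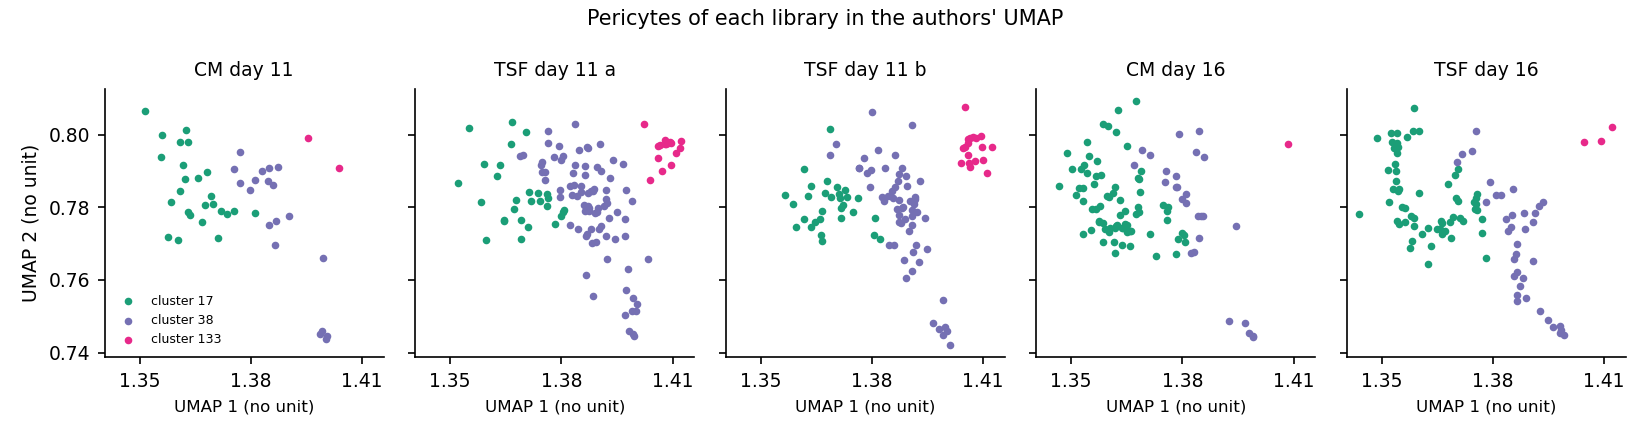
Position of each pericyte in the authors' UMAP (both axes without unit), 1 panel per library, coloured by initial cluster. The 1 pericyte outside these clusters lies far off and is left out. Cluster 133 at the upper right holds 34 cells in the TSF day 11 panels and 6 in the other 3 panels.

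How far 2 libraries differed in this make-up was summed as the percent of cells that would have to sit in another initial cluster for both to be alike. For pericytes it was 10.0% between TSF day 11 a and b, 11.9% between TSF day 16 and CM day 16, and 17.9% between CM day 16 and CM day 11. It was 29.5% between TSF day 11 and CM day 11 and 35.5% between TSF day 16 and TSF day 11. In the second clustering of the authors, which split pericytes more finely, the order was another one. There it was 13.8% between TSF day 11 a and b, 14.9% between TSF day 16 and CM day 16, and 25.5% between TSF day 11 and CM day 11, but 45.2% between CM day 16 and CM day 11 and 49.2% between TSF day 16 and TSF day 11. The pairs with TSF day 11 were thus the most distant in the initial clusters, and the pairs of different days in the finer ones. For myofibroblasts the value between TSF and CM at day 11 was 10.7%, about that between a and b, which was 10.6%. For fibroblasts these values were 8.70% and 8.28%, and for blood vessel endothelial cells 18.5% and 9.30%. In the finer clusters the values between TSF and CM at day 11 and between a and b were 20.6% and 23.4% for myofibroblasts, 27.1% and 20.0% for fibroblasts and 32.5% and 17.9% for endothelial cells, so pericytes did not stand apart from the endothelium in this measure. In the initial clusters these types were spread over 6, 14 and 34 groups, against 4 for pericytes, and the number of cells differed too, so the values are to be read against the a to b distance of the same type. That distance is itself an imperfect measure, since it compared 126 with 109 pericytes, while CM day 11 had 46. With fewer cells a distance tends to be larger by counting error alone. It may also hold no variation between mice or pools, as the relation of a and b is not known.

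In that second clustering, made of pericytes, myofibroblasts and fibroblasts together, pericytes fell into 16 of the 111 resulting sub-clusters, of which 12 held at least 20 pericytes. Of all pericytes 48.7% came from TSF day 11 and 41.8% from the day 16 libraries. Sub-cluster 74, of which 26 cells were in initial cluster 133, had 26 of 29 cells from TSF day 11. Sub-cluster 76 had 23 of 27, sub-cluster 12 had 42 of 54 and sub-cluster 43 had 19 of 26 from TSF day 11. These counts also follow the number of pericytes per library. Sub-cluster 43 held 8.70% of the pericytes of CM day 11, against 7.94% and 8.26% in TSF day 11 a and b. Its shares were 0.990% in CM day 16 and 1.98% in TSF day 16, so it was not particular to TSF. Sub-cluster 12 held 10.9% in CM day 11, against 19.0% and 16.5% in a and b. Day 16 libraries gave 32 of 41 cells in sub-cluster 49, 33 of 44 in sub-cluster 34, 18 of 24 in sub-cluster 63 and 45 of 71 in sub-cluster 5. In each of these 8 sub-clusters CM day 11 gave 1 to 5 cells, so its shares are known only to within wide limits.

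Pericytes yielded few transcripts. Their median was 1740 UMIs per cell, the 4th lowest among 21 cell types, against 2857.5 in myofibroblasts, 3470 in fibroblasts and 2287.5 in blood vessel endothelial cells. Median UMIs per pericyte were 1613 in CM day 11 (843 to 3773, lowest and highest cell), 1631.5 in TSF day 11 a (818 to 5384) and 1580 in TSF day 11 b (832 to 7231). They were 2005 in CM day 16 (806 to 5789) and 1866 in TSF day 16 (838 to 8482). The day 11 libraries were alike, and both day 16 medians were higher. The interval of the TSF day 16 median (1690 to 2018) overlapped with that of CM day 11 (1336 to 1965). All annotated cells had the same order by day, with medians of 2223, 2109 and 2163 UMIs in CM day 11, TSF day 11 a and b. Theirs were 2645 in CM day 16 and 2301.5 in TSF day 16, while myofibroblasts and fibroblasts did not keep that order. Genes with a UMI in pericytes also had higher medians at day 16, with 991, 996 and 992 at day 11 and 1200 in CM day 16 and 1125 in TSF day 16. Within pericytes of 1500 to 2500 UMIs the median number of genes was 1203 in CM day 11, 1150.5 and 1096 in TSF day 11 a and b, 1147.5 in CM day 16 and 1166 in TSF day 16, so the order by day was not kept at like depth. Mitochondrial transcripts were a median of 1.95% to 2.49% of UMIs in every library.

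**Figure D4:**
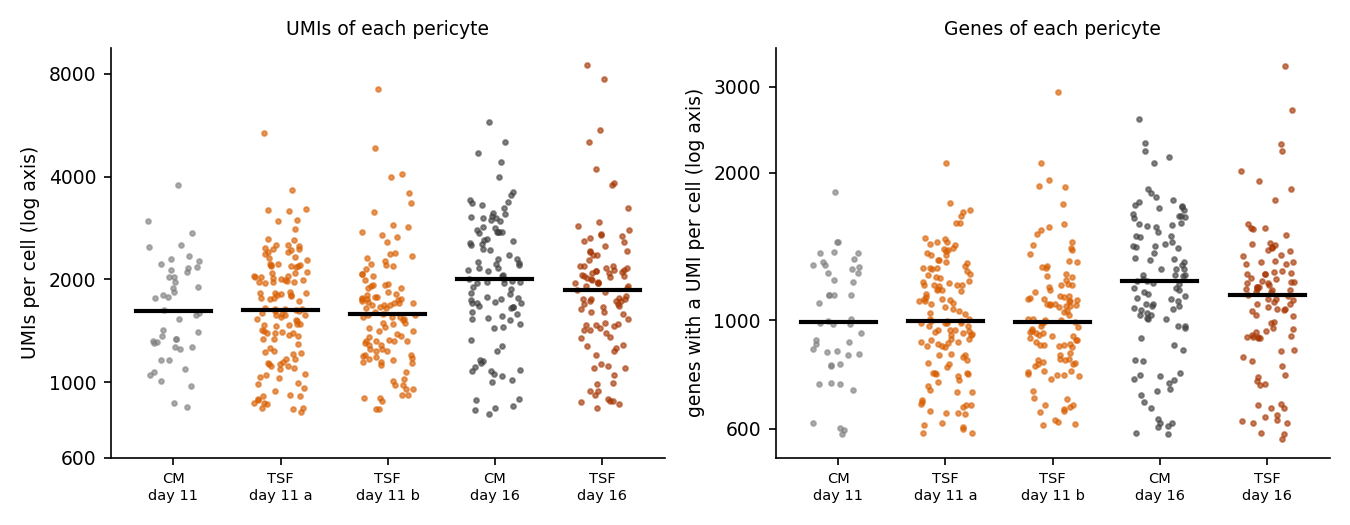
UMIs (left) and genes with a UMI (right) in each pericyte by library, on log axes. Points are cells and black lines are medians, which are 1580 to 1631.5 UMIs in the day 11 libraries and 1866 and 2005 in the day 16 libraries.

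Depth bears on how many pericytes were kept, since the deposited cells had at least 800 UMIs. Of all pericytes 9.73% lay between this minimum and 1000 UMIs, against 6.42% of all annotated cells. The shares were 6.52% in CM day 11, 12.7% in TSF day 11 a, 10.1% in TSF day 11 b, 5.94% in CM day 16 and 10.9% in TSF day 16. Depth also moved with the clusters, as the median was 1912 UMIs in cluster 17 and 1604 in clusters 38 and 133. Among cells with at least 2000 UMIs there were 15, 40, 25, 51 and 42 pericytes in CM day 11, TSF day 11 a and b, CM day 16 and TSF day 16. In these deeper cells the TSF over CM ratio at day 11 was 1.73 (0.978 to 3.28) for pericytes and 2.14 (1.00 to 5.30) for clusters 38 and 133, and the intervals then reached 1. The ratio of the share of pericytes that lay in cluster 17 was 0.707 (0.284 to 1.93) in these cells, against 0.458 (0.280 to 0.758) in all pericytes.

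For the cancer cells of day 16 a table of expression per gene was used, and their ligands for receptors of pericytes were read in 139 cells of TSF day 16 and 29 cells of CM day 16. Levels are means of CP10k, the UMIs of a gene scaled to 10000 per cell, and log2 ratios are of CP10k plus a pseudocount of 1, a scale that understates the change of low genes. Of 16 ligands, 10 were detected in 10% or more of the cancer cells from 1 or both libraries. On that scale 0 of these 10 were past 1.5-fold, but only Pdgfa, Tgfb1 and Hbegf were at levels where it could be reached. Pdgfb, Pdgfc, Jag1, Dll1, Tgfb3, Angpt1 and Angpt2 were too low in both libraries to pass at any ratio. With a pseudocount of 0.1, Angpt1 was past 1.5-fold, at a log2 ratio of 1.23. The share of all genes past it with that pseudocount was not analysed here. With the pseudocount of 1, 0.755% of all genes that passed that minimum were higher and 1.95% were lower in TSF by that fold. The median log2 ratio of the 10 ligands was 0.06, with 6 above and 4 below 0. Over all genes that passed the median was -0.03, and 40.3% of them were above 0. The 6 others were Pdgfd, Jag2, Dll4, Tgfb2, Edn1 and Shh.

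Among PDGF ligands, which act on receptors of mesenchymal cells, Pdgfa (ENSMUSG00000025856) was at 1.49 CP10k in TSF day 16, with a UMI in 113 of 139 cells, and at 1.13 in CM day 16, in 20 of 29 cells, a log2 ratio of 0.22. Pdgfb (ENSMUSG00000000489), whose product is the ligand that recruits pericytes, was low in both libraries, at 0.0691 and 0.0278 CP10k, with a UMI in 21 and 3 cells. Pdgfc (ENSMUSG00000028019), a ligand of the PDGF receptor α, was at 0.308 and 0.189 CP10k, in 63 and 8 cells. All 3 were higher in the TSF library by value, and the intervals of their shares of cells overlapped between the libraries. The Notch ligands were low, with Jag1 at 0.0874 and 0.0881 CP10k and Dll1 at 0.0445 and 0.0919.

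Tgfb1, which drives contractile and matrix genes in mural cells, was at 0.688 CP10k in TSF day 16 and 0.887 in CM day 16, a log2 ratio of -0.16, and Tgfb3 was at 0.387 and 0.332. Angpt1, a Tie2 ligand that pericytes themselves are known to supply to endothelium, was at 0.229 and 0.0403 CP10k, with a UMI in 25 of 139 cells (18.0%) and 1 of 29 cells (3.45%), a log2 ratio of 0.24. Angpt2, which opposes it on endothelium, was at 0.0869 and 0.0345 CP10k. Hbegf, an EGF receptor ligand, had the highest level of the list, at 3.71 and 5.22 CP10k in 124 and 26 cells, a log2 ratio of -0.40. Cancer cells had like depth in both libraries, with medians of 26615 and 27679 UMIs, but with 29 cells in CM day 16 a share is known only to within wide limits. Shares in a cell type that lacks these ligands were not analysed here.

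**Figure D5:**
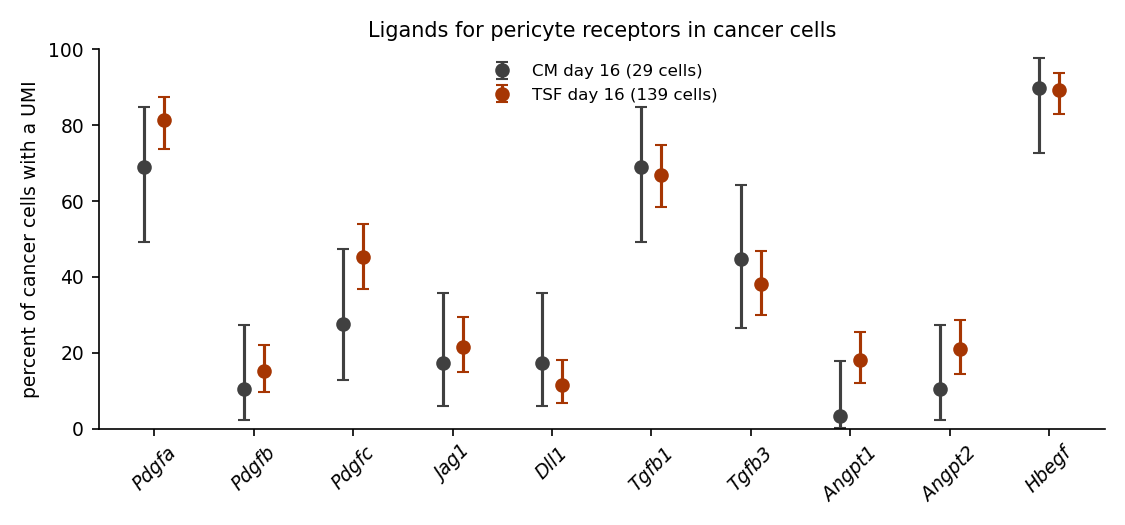
Percent of day 16 cancer cells with a UMI of each of the 10 ligands that passed the minimum, in CM (29 cells) and TSF (139 cells), with exact 95% counting intervals. The intervals of the 2 libraries overlap for every ligand, and Angpt1 has the lowest CM share at 3.45%.

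Pericyte transcripts were almost absent from these cancer cells. Pdgfrb, Cspg4, Cox4i2 and Notch3 were at 0 in all of them. A count of 0, taken as at most 3 cells of the total, allows a share of cells with a UMI of up to 2.16% in TSF day 16 and up to 10.3% in CM day 16, which limits detection and not expression. Of the 12 pericyte markers 8 were at 0 in both libraries, and Rgs5, Kcnj8, Ndufa4l2 and Gucy1a1 had a UMI in 1 TSF cell each. Their summed level was 0.0153 CP10k in TSF and 0 in CM, after the authors' subtraction of ambient RNA. Of the markers of other cells 1 of 5 myofibroblast, 2 of 5 fibroblast, 1 of 5 endothelial, 0 of 5 leukocyte and 0 of 4 alveolar genes passed the minimum, and 0 of them were past 1.5-fold with the pseudocount of 1, a size that genes at such levels can hardly reach. Tgfbi was at 0.0555 CP10k in TSF and 0.0302 in CM, Pdgfra at 0.426 and 0.407, and Cdh5 at 0.0387 and 0.0237. Dcn, a fibroblast proteoglycan, was at 0.526 and 0.0907 CP10k, with a UMI in 16 of 139 and 2 of 29 cells. The summed fibroblast markers were at 1.00 and 0.498. Most of the CM sum was Pdgfra, which had a UMI in 63 of 139 TSF and 13 of 29 CM cancer cells, and most of the difference between the sums was Dcn. The summed leukocyte markers were at 1.00 CP10k in TSF and at 0 in CM. Nearly all of the TSF sum came from S100a9, at 0.685 with a UMI in 4 of 139 cells, and S100a8, at 0.300 in 2 cells. The intervals of these shares of cells overlapped with those of CM. The part that transcripts of other cells had in the ligand values was not tested.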

How the data were processed

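Lungs were profiled by 5' single-cell RNA sequencing (10x Genomics). The authors mapped reads with Cell Ranger to mm10 (GRCm38.p6), extended by the reporter, imported counts with Seurat 4.1.0, and subtracted ambient RNA with a customised SoupX, which raises the removed fraction and adapts it per cell and can lower low genes. The deposited cell table gives, per cell, UMI counts and gene counts after that step, the deposited percent of mitochondrial UMIs, cluster numbers, UMAP coordinates (a score without unit, as deposited) and the name given by the authors. Its cells had at least 800 UMIs and 202 genes and under 10% mitochondrial UMIs. The authors clustered on highly variable genes, named clusters by hand and removed doublet clusters. The deposited table of day 16 cancer cells gives the authors' mean CP10k, a signal scaled per cell, and counts and percent of cells with a UMI. Its fold changes, p-values and ranking columns are the authors' own comparisons and were not used. The cell table held 2 other libraries, which were not used. No expression matrix was used.

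Annotated cells exclude those that the authors called doublets or unknown. Shares have exact Clopper-Pearson intervals, ratios of shares exact conditional Poisson intervals, which are too wide for large shares, and differences of log2 ratios normal intervals on the counts. For TSF day 11 the counts of a and b were pooled for the interval. Pericytes per 100 endothelial cells are the pericyte count divided by the endothelial count. Gene positions came from GENCODE M21. A listed ligand or pericyte marker was named with values if detected in 10% or more of the cancer cells from 1 or both libraries, or was 1 of the 4 defining markers. The members, gene lists and clusters were chosen with earlier results of these data known. Other denominators, UMI and mitochondrial limits, single TSF libraries, pseudocounts and cluster splits were tried as alternatives. Calculations were checked on simulated counts and were run with scipy 1.17.1, pandas 2.3.3 and numpy 2.4.6 under Python 3.11.15, and plots were drawn with matplotlib 3.10.9.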

Additional observations from a re-analysis of the deposited data

Results flagged for a closer look

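By share of annotated cells, the pericyte difference between TSF and CM changed sides between day 11 and day 16. Both TSF day 11 libraries had a larger pericyte share than CM day 11, and the TSF day 16 library had a smaller one than CM day 16. The log2 ratio of day 16 minus that of day 11 was -1.40 for annotated cells, -0.998 for annotated cells without granulocytes and -1.05 among mesenchymal cells. With 1 sample per group these differences were not tested. Without granulocytes the day 16 ratio itself was 0.966, and its interval of 0.726 to 1.29 included 1. Per blood vessel endothelial cell TSF was above CM on both days, at 1.76 and 1.33 times, so on that scale the sides did not change. Nor did they change among cells neither immune nor cancer, with ratios of 1.87 at day 11 and 1.03 at day 16. The log2 change there was -0.853.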

How the results depend on the processing

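Of the alternatives planned for the pericyte ratios and summaries, 69 values lay within the counting interval of the reported value (or, for a count, within 1.5 times), 10 lay outside it and 1 reversed. A value within the interval can still lose the difference. Of 37 planned ratios whose reported interval excluded a ratio of 1 (or a change of 0), 9 had an interval that included it, among them 0.966 without granulocytes for the TSF over CM share at day 16, 1.73 at 2000 UMIs or more for that at day 11, and 1.11 for pericytes per endothelial cell at day 16 in such cells. The reversed value was the TSF over CM share at day 16, which was 1.03 among cells neither immune nor cancer. The ratio of day 16 over day 11 after TSF moved from 0.872 to 1.17 without granulocytes, 1.27 among cells neither immune nor cancer and 1.22 in cells of at least 2000 UMIs. Means in place of medians moved to 1768.9 UMIs in TSF day 11 b and 2042.56 in TSF day 16, and to 2.18%, 2.66% and 2.83% mitochondrial UMIs in TSF day 11 a, b and TSF day 16. With a pseudocount of 0.1 the number of listed ligands and pericyte markers past 1.5-fold was 1 (Angpt1, log2 ratio 1.23), and by the percent of cells in which the gene was detected it was 3 (Pdgfc 0.72, Angpt1 2.38 and Angpt2 1.01, as log2 ratios), in place of 0. The share of all genes past 1.5-fold was not analysed on either scale, so these counts have no background beside them. Of the alternatives for the clusters, chosen after seeing the data, 34 lay within the counting interval and 2 outside it, at 5.42 for cluster 17, day 16 over day 11 in CM, at 2000 UMIs or more, and at 0.674 for clusters 38 and 133, day 16 over day 11 after TSF, among cells neither immune nor cancer. For cluster ratios with an interval on 1 side of 1, there were 23 alternative values, several for each ratio, and 5 of these values had an interval that included 1. Among them was the share of pericytes in cluster 17, TSF over CM at day 11, at 0.707 in place of 0.458 in cells of at least 2000 UMIs. The cause of these shifts was not tested. Leaving out either TSF day 11 library gave 1.84 to 2.00 for the day 11 ratio. It was not applied to the depth values, which are given per library. No paired analysis was possible because each group was 1 pool of mice and no label ties libraries across groups. The 46 pericytes of CM day 11 and the 29 cancer cells of CM day 16 set the precision.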
